A study of Mus musculus with 12 samples.

Results

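Lysosomal enzymes and Psap were examined in mouse aorta before and during an experimental challenge that leads to aortic dissection. The genes were taken from a list of 43 that name the soluble hydrolases of the lysosome, prosaposin (Psap), the major lysosomal membrane proteins and parts of the proton pump, and their probes were found by the gene name printed in the scanner files. All 43 had a probe on the array, 57 probes in all. Of the 43 genes, 40 had a probe that was measured well above background on every array of at least 1 group, among 22755 genes tested in all. Ctse, Galc and Atp6v0d2 had none. Their probes were well above background on 1 array, 3 arrays and at most 1 array of 12, so no level is given for them.

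RNA came from the aorta of male mice of a mixed background (129S5/SvEvBrd, C57BL6 and SJL) in 4 groups of 3 arrays. The question was how deletion of Socs3 in smooth muscle alters the response of the aorta. WT mice carried Socs3 with floxed sites on both copies and no Cre, so the controls also had the floxed allele. Mice labelled smSocs3-KO had the same allele and a Cre transgene driven by the SM22 promoter, which is active in smooth muscle. Each genotype was sampled before challenge and at day 3 of BAPN + AngII challenge, that is, osmotic minipumps delivering β-aminopropionitrile at 150 mg/kg/day, which blocks collagen and elastin cross-linking, and angiotensin II, a peptide hormone that acts on vessels, at 1000 ng/kg/min. The methods give ages of 11 to 14 weeks. The sources do not say whether each array held RNA of 1 mouse, so the p-values measure the spread between these arrays.

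Lysosomes break down protein, glycan and lipid that cells take up or recycle. Most of their enzymes are made as inactive precursors, tagged with mannose 6-phosphate and delivered by sorting receptors, and they work in the acid that the V-type proton pump maintains. Macrophages hold many lysosomes, and some cathepsins are also released and cut elastin and collagen in the vessel wall. Psap is the precursor of the saposins, small proteins that lift sphingolipids out of membranes for the hydrolases, and it is also secreted.

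Levels are log2 signals relative to the 75th percentile of their array, and differences are in log2 units with their standard error (SE). A gene was called at a Benjamini-Hochberg adjusted p under 0.05 in limma, a linear model fitted to all genes tested. The threshold of the study, p under 0.01 with a fold above 4 or below 0.25, was counted beside it. Exact permutation of 3 arrays against 3 cannot give a two-sided p under 0.1, so no permutation test is given.

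The promoters of these genes are shown here because the lysosomal genes as a class are known for the motif CACGTG, the core of the element that TFEB and its relatives bind. In the RefSeq promoters (GRCm38.p6, from 250 bases before to 50 after each start), CACGTG, which reads the same on either strand, was found in 13 of the 38 list genes with an entry (34.2%) and in 8.09% of 27025 genes. The longer TCACGTGA, which contains it, was found in 4 of the 38 (10.5%) and in 1.12% of all genes. Among the cathepsins and other proteases 5 of 10 promoters held CACGTG, and of the macrophage marker genes 0 of 8. The last 100 bases before the start are given for 4 genes with the motif, in capitals, and for the 3 genes that were called in the smSocs3-KO response and had no match in this window. Each is written 5′ to 3′ on the strand of its gene.
Lamp1 (chr8:13159061-13159160, plus strand): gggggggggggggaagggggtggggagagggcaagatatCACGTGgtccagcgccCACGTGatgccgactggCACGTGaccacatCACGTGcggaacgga
Mcoln1 (chr8:3500419-3500518, plus strand): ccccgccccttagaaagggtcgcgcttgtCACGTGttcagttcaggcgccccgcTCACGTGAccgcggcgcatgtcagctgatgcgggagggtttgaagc
Glb1 (chr9:114400978-114401077, plus strand): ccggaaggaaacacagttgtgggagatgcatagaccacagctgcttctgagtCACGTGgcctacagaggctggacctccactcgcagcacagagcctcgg
Lgmn (chr12:102439093-102439192, minus strand): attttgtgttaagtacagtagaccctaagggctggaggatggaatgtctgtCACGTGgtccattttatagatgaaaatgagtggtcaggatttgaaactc
Ctsc (chr7:88277985-88278084, plus strand): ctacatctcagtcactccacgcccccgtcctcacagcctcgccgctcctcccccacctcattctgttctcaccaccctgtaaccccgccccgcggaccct
Ctss (chr3:95526686-95526785, plus strand): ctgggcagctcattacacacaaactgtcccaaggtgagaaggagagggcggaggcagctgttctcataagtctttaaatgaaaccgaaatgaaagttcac
Cd68 (chr11:69666171-69666270, minus strand): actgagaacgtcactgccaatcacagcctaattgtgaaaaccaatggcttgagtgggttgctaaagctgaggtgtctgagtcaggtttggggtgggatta
Lgmn has a second annotated start, whose promoter holds no match. A match describes these letters and is not evidence that a factor binds.

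The Psap readout rests on 1 probe, the only one the array carries for it, at chr10:59764825-59764884 on the plus strand of mm9, the build of the probe coordinates. It begins at base 2136 of its RefSeq transcript. Several genes had 2 measured probes that did not move alike, and the opening 30 bases of those that matter below are given with the Psap probe, with a run of a 2-base repeat in capitals where there is one.
Psap (chr10:59764825-59764854, plus strand): gttattttggatgattagaagcacagaatg
Ctsc, probe in the RefSeq transcript (chr7:95458436-95458465, plus strand): cgggtctttatcactcacagagtgatttag
Ctsc, probe in a further Ensembl transcript (chr7:95435428-95435457, plus strand): ttgttcatgcagctgggaactgtgggaatg
Idua, first probe (chr5:109112893-109112922, plus strand): CACACACACACACACACACAgagtctaaat
Idua, second probe (chr5:109113517-109113546, plus strand): cccaaatgactctagcttgtaataaactga

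Across the whole series, 55.4% to 61.2% of spots were well above background on each array. Arrays came from 2 slides: slide 1 held all 6 WT arrays and smSocs3-KO before challenge replicate 1, and slide 2 held the other 5 smSocs3-KO arrays, so at day 3 slide and genotype cannot be told apart. Socs3 itself was not lower under the smSocs3-KO label. Its levels were 0.30, 0.32 and 0.75 on the WT arrays before challenge and 0.24, 1.14 and 1.46 on the arrays labelled smSocs3-KO, and at day 3 they were 2.21, 2.30 and 0.64 against 3.31, 2.28 and 4.13. Whether its probe lies in the deleted part is not given in the sources used here, and genotype directions below refer to the labels. WT day 3 replicate 4 stood apart from the other WT arrays of that day. The tissue had the markers of aorta, with all 7 smooth muscle markers and all 5 endothelial markers measured. All 5 adipocyte markers were measured too, with summed levels from 4.36 to 47.3 within the WT arrays of day 3. The part of fat tissue in the results was not tested.

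After 3 days of BAPN + AngII challenge, the cysteine proteases Ctsc, Ctss, Ctsk and Lgmn and the macrophage lysosomal protein Cd68 were the list genes with the smallest p in the mean of both genotypes. Of these, Ctsc, Ctss and Cd68 rose by more than 1 log2 unit in that mean, while Lgmn rose by 0.99 and Ctsk by 0.96. Most other lysosomal hydrolases also moved by less than 1 log2 unit. In WT aorta, 1 of the 40 genes passed the adjusted threshold, Ctsc, against 3.58% of all genes tested that were called higher. In aorta labelled smSocs3-KO, 3 of 40 passed, Ctsc, Ctss and Cd68, against 1.71% of all genes. At an unadjusted p under 0.05, 11 genes were higher and 2 lower in WT, where 15.9% and 10.7% of all genes were, and 17 were higher and 1 lower under the smSocs3-KO label, where 12.8% and 11% of all genes were. The day 3 arrays all lay above the arrays before challenge for 15 genes in WT and 17 genes in smSocs3-KO, where 20.7% and 14.1% of all genes did so. They all lay below for 2 genes in WT (Gaa and Sgsh) and 5 in smSocs3-KO (Gaa, Sgsh, Ctsf, Gla and Manba), where 14.6% and 14% of all genes did. On the other measured probe of Sgsh the groups overlapped in each genotype, and on that of Gaa in smSocs3-KO. The median difference over the 40 genes was 0.25 in WT and 0.24 in smSocs3-KO, and over all genes tested it was -0.02 and -0.06. Counts over the list moved with those over all genes when 1 array was left out. Without WT day 3 replicate 4, 10 list genes and 15.9% of all genes were called in WT, and 6 list genes and 8.43% of all genes in smSocs3-KO, where the full set of arrays gave 4.68% and 2.45% in either direction. In WT 5 list genes and 10.4% of all genes were called without smSocs3-KO before challenge replicate 1, and 3 list genes and 3.86% without smSocs3-KO day 3 replicate 5. No list gene was called in WT without any of the WT arrays before challenge, WT day 3 replicate 1 or 3, or smSocs3-KO before challenge replicate 4, where at most 0.0132% of all genes were, nor without smSocs3-KO day 3 replicate 3, where 2.4% were. In smSocs3-KO none was called without any of the WT arrays before challenge, smSocs3-KO before challenge replicate 1 or 3, or any smSocs3-KO array of day 3, where 0.185% to 1.57% of all genes were.

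Because the responses of WT and smSocs3-KO share no array, their mean was also tested, a comparison chosen after the data were seen. It called 14 of the 40 genes higher, where 13.6% of all genes were called higher, and 2 genes lower, Gaa and Ctsf, where 9.18% of all genes were. The median over the 40 genes was 0.24 and over all genes -0.05. Proteases gave 7 of the 14 genes: Ctsc, Ctss, Lgmn, Ctsk, Ctsl, Ctsz and Ctsb. Membrane and transport proteins gave 4, Cd68, Cd63, Npc2 and Lamp2, and the rest were Gusb, Neu1 and Tcirg1. Some of these calls were less firm: of 21 alternatives, Ctsb kept its call in 12, Neu1 in 8, Lamp2 in 6 and Tcirg1 in 5. Ctsf, called lower, kept its call in 8. Leaving out 1 array at a time left 9 to 15 genes called, with 9 left without WT day 3 replicate 1 and 10 without WT before challenge replicate 1 or 2, where 11.1% to 12.4% of all genes were called, against 22.7% with all arrays.

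**Figure D1:**
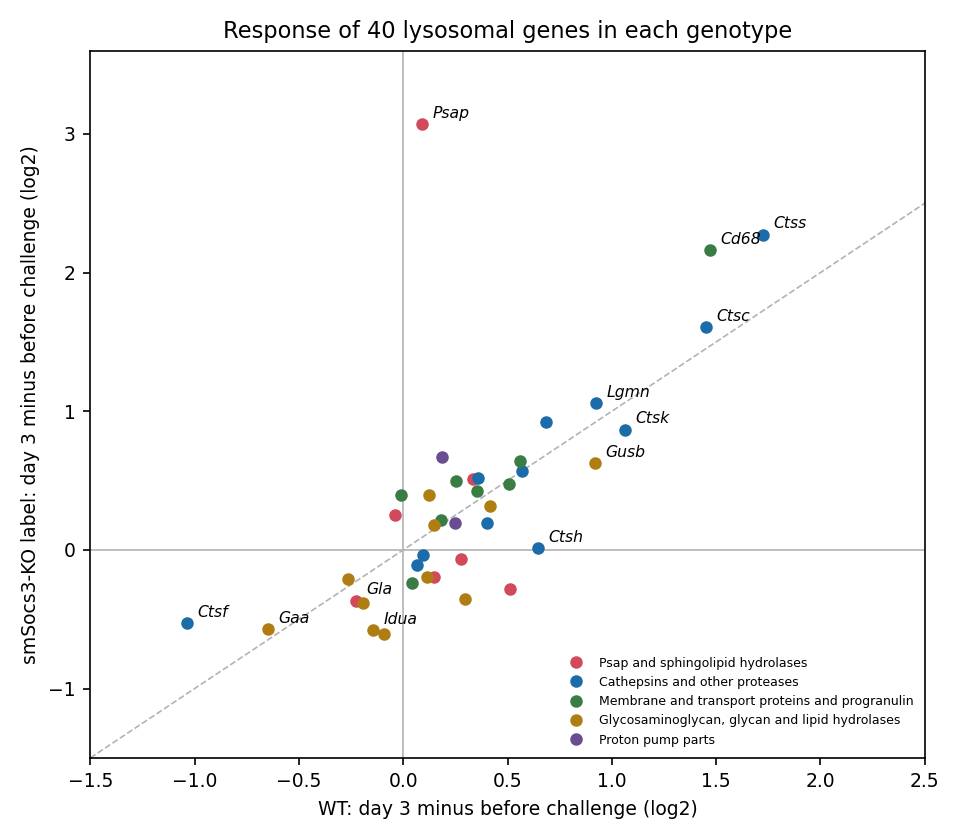
Response of each of the 40 measured genes, day 3 minus before challenge in log2 units, in WT (horizontal axis) and in mice labelled smSocs3-KO (vertical axis), coloured by role, with equal responses on the dashed line. Ctss, Cd68 and Ctsc lie at the upper right, Gaa and Ctsf at the lower left, and Psap lies at 0.09 on the WT axis and 3.07 on the smSocs3-KO axis.

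Among the proteases, Ctsc, the dipeptidyl peptidase that activates granule serine proteases of leukocytes, was called in each genotype. Its level was 1.22, 1.12 and 1.39 before challenge and 3.29, 2.70 and 2.09 at day 3 in WT. Under the smSocs3-KO label it was 0.90, 1.74 and 1.68 before challenge and 3.29, 3.08 and 2.76 at day 3. All 6 day 3 arrays were above all 6 arrays before challenge. The difference was 1.45 (SE 0.31, n = 3 per group), a 2.73-fold rise, in WT (limma adjusted p = 0.036) and 1.61 (SE 0.31), a 3.04-fold rise, in smSocs3-KO (limma adjusted p = 0.035). The mean response was 1.53 (SE 0.22, limma adjusted p = 0.0048). These values are those of the probe in the RefSeq transcript. On the Ctsc probe that sits in a further Ensembl transcript the mean response was 0.17, with a 95% interval of -0.19 to 0.52.

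Ctss, an elastin-cutting cathepsin of antigen-presenting cells, was 2.02, 2.01 and 1.87 before challenge and 4.56, 3.97 and 2.54 at day 3 in WT. In smSocs3-KO it was 1.87, 2.88 and 3.21 before challenge and 4.82, 4.95 and 5.01 at day 3. The groups did not overlap in either genotype, and WT day 3 replicate 4 was lower than every array labelled smSocs3-KO except replicate 1 before challenge. Ctss rose 4.84-fold in smSocs3-KO, a difference of 2.27 (SE 0.46, limma adjusted p = 0.038) that also passed the threshold of the study, which 1.44% of all genes passed upward. Without smSocs3-KO before challenge replicate 1, the only array of its genotype on slide 1, that difference was 1.88. This value, within slide 2, is below the fold of 4 of the study. In WT the difference was 1.72 (SE 0.46, limma adjusted p = 0.055), and without WT day 3 replicate 4 it was 2.30 and passed the threshold.

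Cathepsin K (Ctsk), a collagen- and elastin-cutting enzyme best known from osteoclasts, was 3.11, 2.95 and 3.52 before challenge and 4.47, 4.49 and 3.80 at day 3 in WT. Under the smSocs3-KO label it was 3.33, 3.24 and 3.15 before challenge and 4.19, 4.56 and 3.58 at day 3. No array at day 3 overlapped with those before challenge of its own genotype. The difference was 1.06 (SE 0.27, limma adjusted p = 0.052) in WT and 0.87 (SE 0.27, limma adjusted p = 0.10) in smSocs3-KO, so neither passed alone, and the mean of 0.96 (SE 0.19, limma adjusted p = 0.0099) did. Legumain (Lgmn), the asparaginyl protease that trims other cathepsins to their mature form, is given on every array as a choice made after its values were seen, as are Gaa and Ctsf further on. It was 5.20, 5.29 and 5.58 before challenge and 6.81, 6.21 and 5.85 at day 3 in WT, and 5.27, 5.88 and 5.54 against 6.73, 6.50 and 6.63 in smSocs3-KO. Its mean response was 0.99 (SE 0.18, limma adjusted p = 0.0071).

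**Figure D2:**
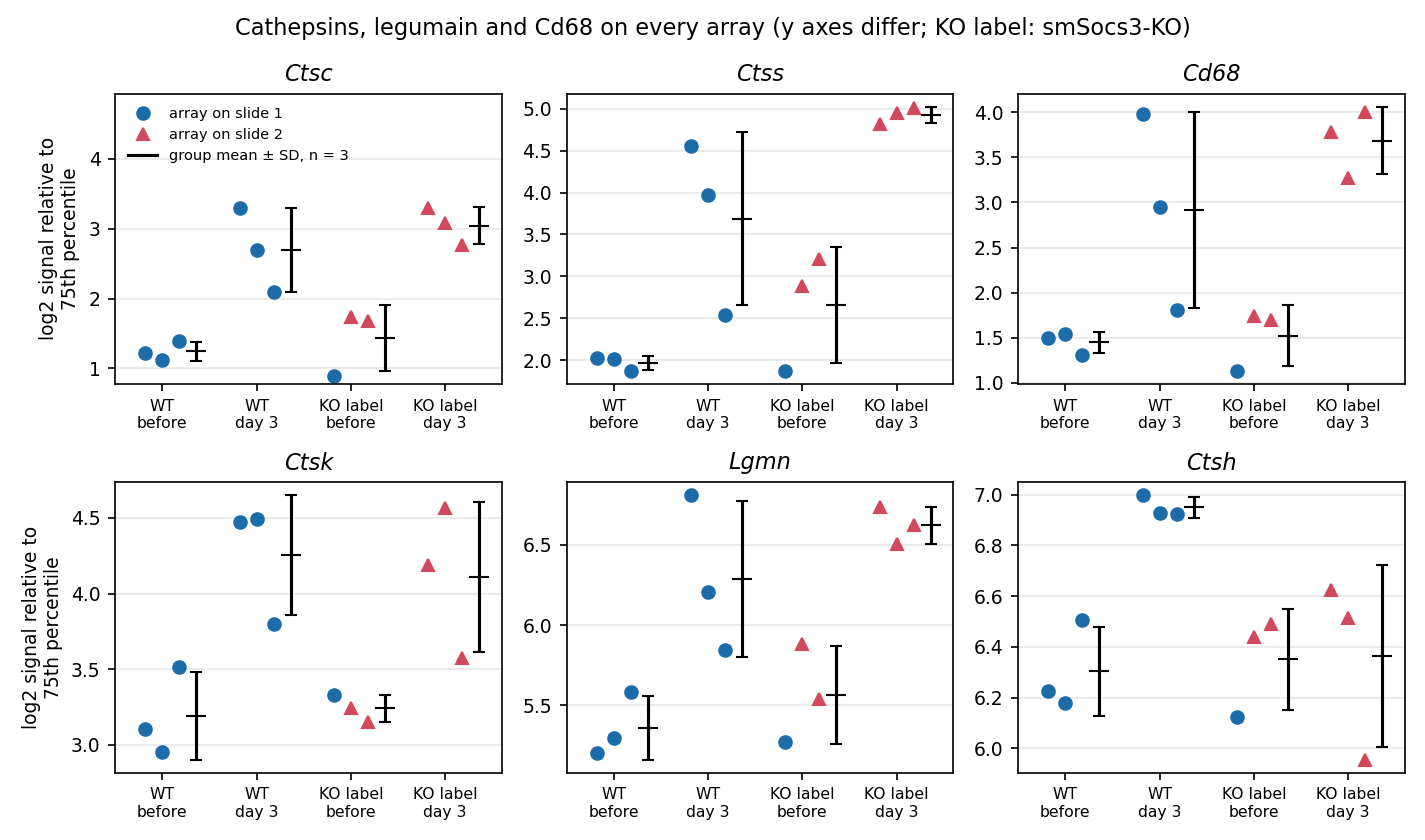
Level of 5 proteases and Cd68 on each of the 12 arrays, in log2 units relative to the 75th percentile of the array, by group, with blue circles for slide 1 and red triangles for slide 2 and the group mean ± SD beside them (n = 3). For Ctsc, Ctss, Cd68, Ctsk and Lgmn every day 3 array lies above the arrays before challenge of its genotype; for Ctsh this holds in WT and not under the smSocs3-KO label.

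Of the other proteases, Ctsl rose by a mean of 0.80 (SE 0.19), Ctsz by 0.57 (SE 0.13) and Ctsb by 0.44 (SE 0.12), each called in the mean comparison. Ctsf was lower, with a mean difference of -0.78 (SE 0.25, limma adjusted p = 0.044). Its WT day 3 levels were 1.03, 0.68 and 2.25, and the last of these is again WT day 3 replicate 4, which lay at the level before challenge (2.24, 2.38 and 2.46). The aspartic protease Ctsd and the carboxypeptidase Ctsa, which protects neuraminidase and β-galactosidase, had mean differences of -0.02 (95% interval -0.29 to 0.25) and 0.03 (95% interval -0.21 to 0.27). Tpp1, a tripeptidyl peptidase, had 0.30 (95% interval -0.03 to 0.63).

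Ctsh, an aminopeptidase, had the second smallest p for a difference between the genotypes at day 3. It was 6.22, 6.18 and 6.50 before challenge and 7.0, 6.93 and 6.93 at day 3 in WT. In smSocs3-KO it was 6.12, 6.44 and 6.49 before challenge and 6.62, 6.51 and 5.96 at day 3. All 3 WT arrays at day 3 lay above all 9 others. The response was 0.65 (SE 0.20) in WT and 0.01 (95% interval -0.42 to 0.45) in smSocs3-KO, and the difference of these responses was -0.63 (SE 0.28), which did not pass (limma adjusted p = 0.93). Between the genotypes at day 3 it was -0.59 (SE 0.20, limma adjusted p = 0.19).

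Membrane and transport proteins were led by Cd68, a heavily glycosylated membrane protein of macrophage lysosomes. It was 1.49, 1.54 and 1.31 before challenge and 3.99, 2.95 and 1.81 at day 3 in WT. Under the smSocs3-KO label it was 1.13, 1.74 and 1.70 before challenge and 3.78, 3.27 and 4.0 at day 3. Groups did not overlap in either genotype on this probe. Cd68 rose 4.48-fold in smSocs3-KO, a difference of 2.16 (SE 0.44, limma adjusted p = 0.038) that passed the threshold of the study. Within slide 2, that is without smSocs3-KO before challenge replicate 1, it was 1.97, below the fold of 4 of the study. The WT difference was 1.47 (SE 0.44, limma adjusted p = 0.073), and the second Cd68 probe gave a mean response of 1.70 (SE 0.42) where the first gave 1.82 (SE 0.31). Cd63, a tetraspanin, rose by a mean of 0.60 (SE 0.13), the cholesterol carrier Npc2 by 0.49 (SE 0.13) and Lamp2 by 0.39 (SE 0.13). Lamp1 had -0.10 (95% interval -0.38 to 0.18), the cholesterol transporter Npc1 0.20 (95% interval -0.13 to 0.53) and progranulin (Grn) 0.37 (SE 0.15, limma adjusted p = 0.095). The calcium channel Mcoln1 had 0.19 on its brighter probe and -0.73 (SE 0.27, limma adjusted p = 0.076) on the other. The brighter probe ranged from 2.35 to 3.06. The other was dim, at -5.93 to -3.49, and well above background on only 9 of 12 arrays, so the opposite sign rests on a weaker reading.

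Psap was high on 4 of the 12 arrays. It was -0.09, -0.03 and 0.49 before challenge and 0.37, -0.15 and 0.42 at day 3 in WT. In smSocs3-KO it was -0.23, 0.65 and 4.53 before challenge and 4.36, 5.10 and 4.70 at day 3. The 4 high arrays were the 3 labelled smSocs3-KO at day 3 and smSocs3-KO before challenge replicate 4. Replicates 1 and 3 of that last group lay near the WT arrays. The lowest of the high arrays was 3.71 above the highest of the others. At day 3 Psap was 22.7-fold higher under the smSocs3-KO label, a difference of 4.51 (SE 0.92, limma adjusted p = 0.047), the only list gene called in that comparison and past the threshold of the study there, where 0.958% of all genes were called higher and 0.984% passed the study threshold upward. The response under the smSocs3-KO label was 3.07 (SE 0.92, limma adjusted p = 0.091), past the study threshold with overlapping groups, and in WT it was 0.09 (95% interval -1.94 to 2.12).

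All 4 high Psap arrays were on slide 2, and so was smSocs3-KO before challenge replicate 3, at 0.65, which was itself above the 7 arrays of slide 1 (-0.23 to 0.49). With slide as a block the day 3 difference was 1.69 (SE 1.37, limma adjusted p = 0.54), the highest adjusted p over the settings run (0.000275 to 0.54). That fit takes the slide difference from the smSocs3-KO arrays before challenge alone, replicate 1 against replicates 3 and 4, and the part of the slides in the Psap result cannot be told apart from genotype at day 3. Within slide 2 the response under the smSocs3-KO label was 2.13 (SE 1.06). Leaving out smSocs3-KO before challenge replicate 4 gave 4.51 for that response. Leaving out 1 array at a time kept the day 3 difference between 4.32 and 4.69, and its call was kept without smSocs3-KO before challenge replicate 1 or 4 and lost without any of the other 10 arrays. Markers of mesothelium also differed with the label: 5 of 5 were measured, with summed levels of 3.92 to 22.9 before challenge and 2.70 to 13.8 at day 3 in WT, and 28.3 to 64.4 and 30.7 to 41.8 under the smSocs3-KO label. All 3 smSocs3-KO arrays before challenge were thus above the WT arrays in that sum, including the 2 with low Psap. Of these 3 arrays, replicate 4, with high Psap, had the highest sum, 64.4, and the highest level of each of the 5 markers. The part of these cells in the result was not tested.

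**Figure D3:**
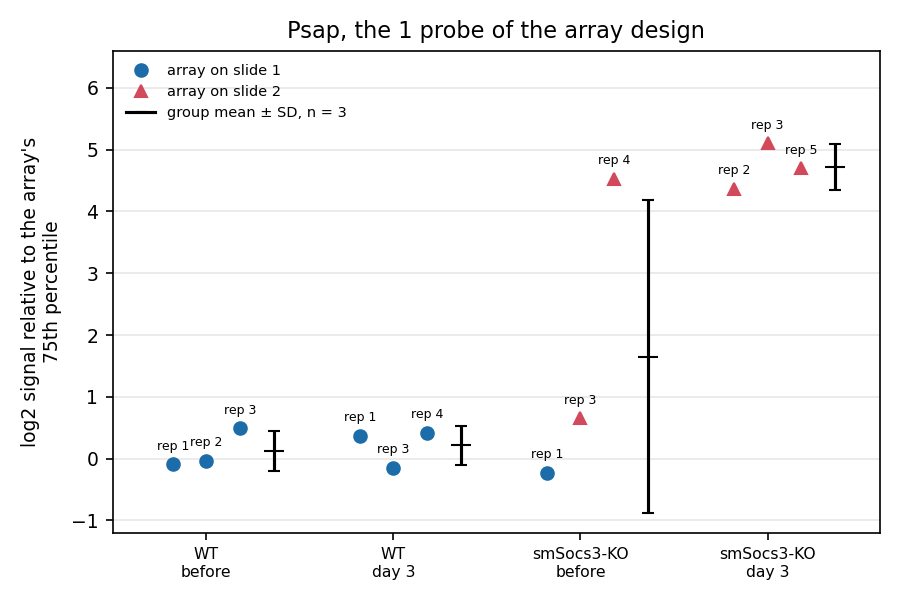
Psap level on each array in log2 units relative to the 75th percentile of the array, by group, with the replicate number above each point, blue circles for slide 1, red triangles for slide 2, and the group mean ± SD (n = 3). The 4 highest points stand above 4, the 3 smSocs3-KO arrays of day 3 and replicate 4 before challenge, and the other 8 lie between -0.23 and 0.65.

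The hydrolases that act beside the saposins were set against Psap in the same arrays. Under the smSocs3-KO label, where Psap gave 3.07, the response was 0.25 for Arsa, which removes sulfate from sulfatide, and it was -0.07 for Smpd1 (acid sphingomyelinase), -0.19 for Hexa, -0.28 for Glb1 (β-galactosidase) and -0.37 for Gla (α-galactosidase). None of these was called. Arsa had its 4 highest levels on the 4 high Psap arrays, 3.78 to 4.29, against 3.48 to 3.71 on the other arrays. Neu1, the sialidase, had 0.51 there and was called in the mean of both responses, at 0.42 (SE 0.12, limma adjusted p = 0.034). In that mean Gla had -0.30 (95% interval -0.67 to 0.08), Hexa -0.02 (95% interval -0.42 to 0.38), Smpd1 0.10 (95% interval -0.13 to 0.33), Arsa 0.11 (95% interval -0.21 to 0.43) and Glb1 0.12 (95% interval -0.34 to 0.58).

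The hydrolases of glycosaminoglycans, glycans and lipids had a median mean response of -0.04 over 11 genes. Gusb (β-glucuronidase) was higher, by 0.77 (SE 0.17, limma adjusted p = 0.013), on its brighter probe, and 0.46 (SE 0.18, limma adjusted p = 0.082) on the other, where WT gave 0.86 and smSocs3-KO 0.06. Gaa (acid α-glucosidase) was lower, at -0.61 (SE 0.15, limma adjusted p = 0.019). It was 5.31, 5.30 and 5.37 before challenge and 4.51, 4.44 and 5.09 at day 3 in WT, and 5.23, 5.32 and 5.45 against 4.75, 5.11 and 4.43 under the smSocs3-KO label, with no overlap in either genotype. Its second measured probe gave -0.69 (SE 0.26), with overlap under the smSocs3-KO label. Lipa (acid lipase) had 0.37 (SE 0.14, limma adjusted p = 0.077), Man2b1 0.26, Naglu 0.16, Ppt1 -0.03, Arsb -0.04, Sgsh -0.24, Ids -0.29 and Manba -0.35, none of them called.

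Idua (α-iduronidase) was read differently by its probes and was singled out after its values were seen. The first, which stands for the gene because it is brighter, opens in 20 bases of CA repeat, as shown above. A repeat of a 1- or 2-base unit of at least 16 bases occurs in 0.237% of 55681 probes, and among the list genes also in the brighter probe of Sgsh, where it runs for 22 bases. On that Idua probe the arrays of slide 1 ranged from 6.82 to 8.24 and those of slide 2 from 6.26 to 6.70, with no overlap, and smSocs3-KO before challenge gave 8.24 on slide 1 and 6.55 and 6.51 on slide 2. The second probe gave 2.29, 2.19 and 2.17 before challenge and 1.61, 1.61 and 2.06 at day 3 in WT. Under the smSocs3-KO label it gave 2.34, 2.38 and 2.35 before challenge and 1.91, 2.19 and 1.65 at day 3. It fell in each genotype without overlap and without following the slides, with a mean difference of -0.45 (SE 0.13, limma adjusted p = 0.033 over all kept probes), against -0.36 (SE 0.295, limma adjusted p = 0.38) on the first.

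**Figure D4:**
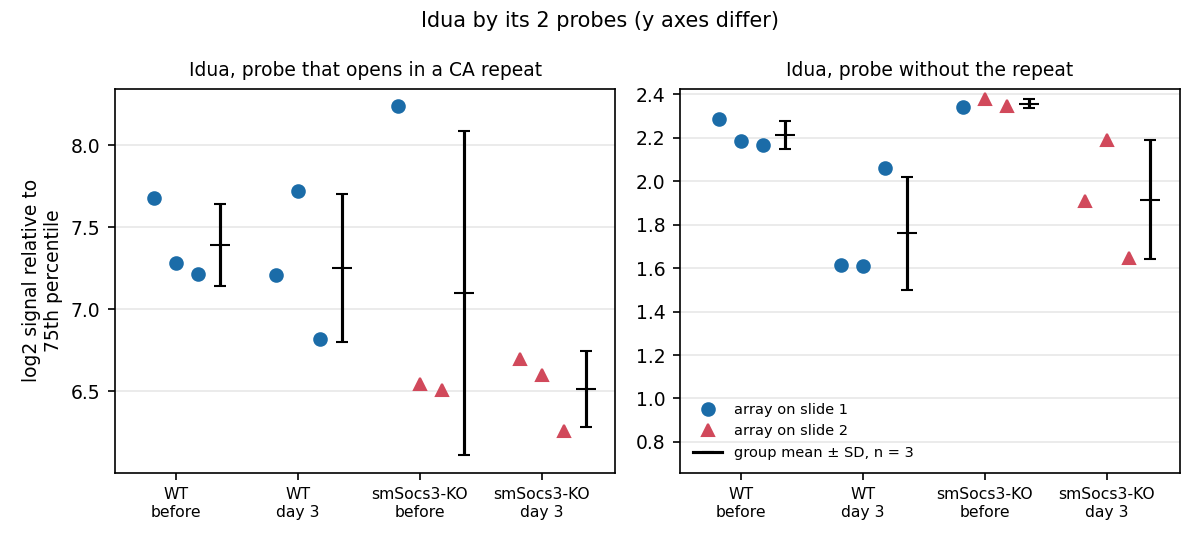
Idua on its 2 probes, level on each array in log2 units relative to the 75th percentile of the array, by group, with blue circles for slide 1, red triangles for slide 2 and the group mean ± SD (n = 3). On the left probe, which opens in a CA repeat, the slides separate at 6.70 against 6.82; on the right probe every day 3 array lies below the arrays before challenge of its genotype.

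In all, 12 of the list genes had 2 measured probes. The mean response was above 0 on both probes for 5 genes, below 0 on both for 3 and of opposite sign for 4, Ctsa, Ctsd, Mcoln1 and Sgsh, none of which was called. Of the proton pump parts, Tcirg1, a membrane subunit, rose by a mean of 0.43 (SE 0.14, limma adjusted p = 0.047) and Atp6ap1, an accessory protein, had 0.22 (95% interval -0.31 to 0.76).

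**Figure D5:**
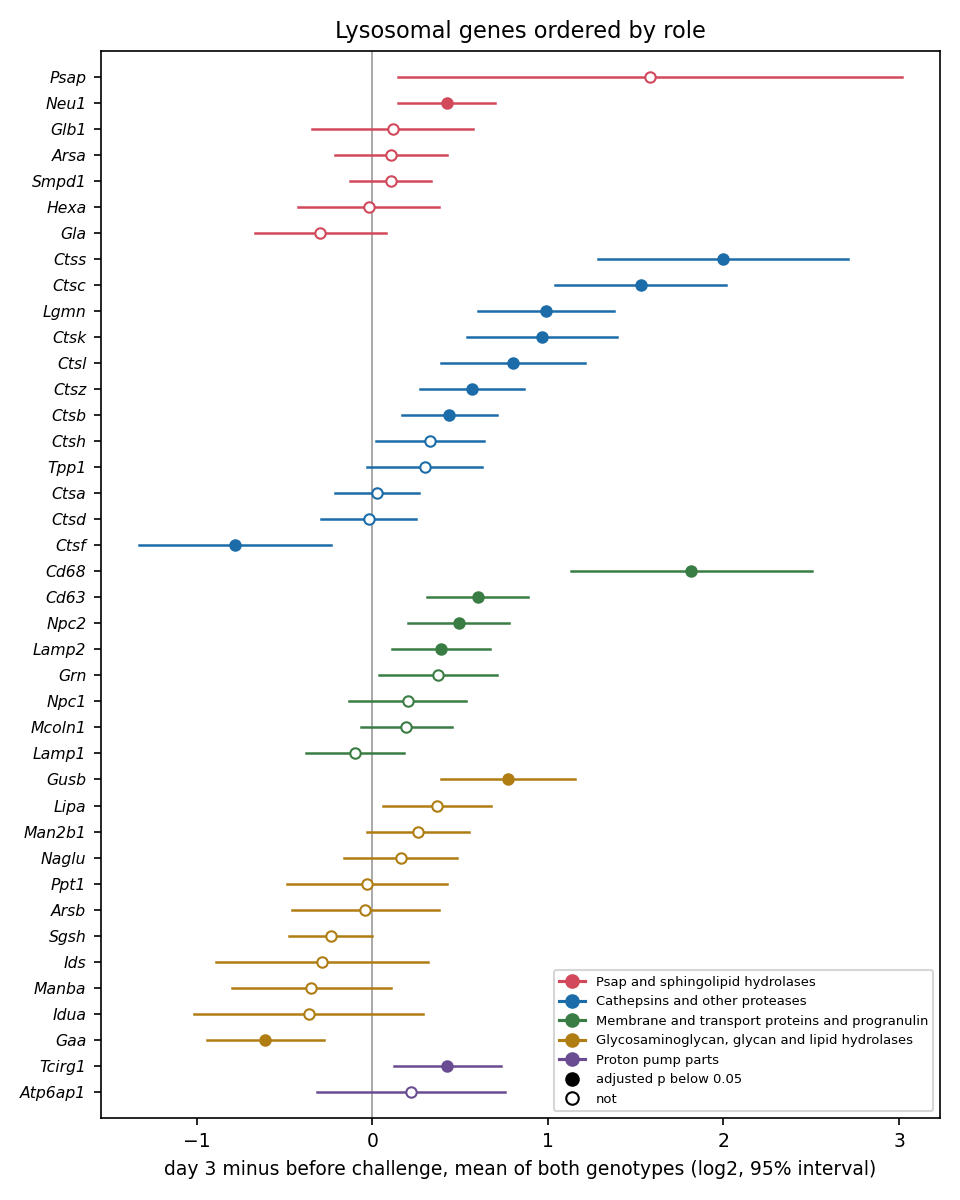
Mean of the WT and smSocs3-KO responses for each of the 40 genes, day 3 minus before challenge in log2 units with 95% intervals, ordered within roles, with filled points for a limma adjusted p under 0.05. Filled points to the right are 14 genes, with Ctss at 2.0 the farthest, and filled points to the left are Ctsf and Gaa; the interval of Psap is the widest of those shown.

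Before challenge, the genotypes were close for most of these genes. No list gene was called by limma, where 0.0264% of all genes were, and none had an unadjusted p under 0.05, where 4.4% of all genes had. The smallest p belonged to Psap, with a difference of 1.53 (SE 0.92), and then to Npc2, with 0.28 (SE 0.18). Npc2 was 3.30, 3.47 and 3.54 in WT and 3.40, 3.79 and 3.96 under the smSocs3-KO label, and the groups overlapped. The 95% interval lay within 1 log2 unit of 0 for 36 of the 39 genes other than Psap. No gene was higher on every smSocs3-KO array and 1, Sgsh, was lower on every one, where 6.48% and 4.6% of all genes were. On the other measured Sgsh probe the groups overlapped. With slide as a block or on slide 1 alone the Psap difference was -0.35.

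At day 3, 7 list genes were higher on every array labelled smSocs3-KO than on every WT array, namely Psap, Ctss, Tcirg1, Arsa, Ctsb, Mcoln1 and Lamp2, where 7.86% of all genes were. Ctsh and Idua were lower on every one, where 12.7% of all genes were. For Idua this held on the probe with the CA repeat, whose levels separate by slide. On its second probe the day 3 groups overlapped, with a difference of 0.15. They also overlapped on the second probes of Lamp2 and Mcoln1, with differences of 0.29 and 0.30. Psap was the list gene called at day 3. Tcirg1 differed by 0.53 (SE 0.19, limma adjusted p = 0.22) and Ctss by 1.24 (SE 0.46, limma adjusted p = 0.23), which became 0.67 without WT day 3 replicate 4. The median over the 40 genes was 0.07 and over all genes -0.08. The test of whether the response differed between the genotypes called no list gene, and 0% of all genes; 2 list genes had an unadjusted p under 0.05 in limma, Psap (2.98, SE 1.30) and Ctsh, and so had 5.33% of all genes. For Ctsc that difference was 0.15 (SE 0.44) and for Cd68 0.70 (SE 0.62).

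Macrophage markers rose beside the cathepsins. All 13 were measured, and 11 were called higher in the mean of both responses, among them Msr1 (2.08, SE 0.34), C1qa (1.63, SE 0.28), Mrc1 (1.43, SE 0.25) and Emr1 (0.90, SE 0.22), while the smooth muscle genes Myh11 (-1.09, SE 0.23) and Myocd (-0.62, SE 0.19) were lower, 2 of 7. The summed level of the macrophage list ranged from 211 to 259 before challenge and 188 to 332 at day 3 in WT, and from 171 to 355 and 239 to 277 under the smSocs3-KO label, so the sums overlapped. Itgam carried 34.9% to 84.1% of that sum, and its probe gave 6.94 to 8.22 on slide 1 and 6.38 to 6.84 on slide 2, with no overlap between slides. Without Itgam, an alternative chosen after seeing the data, the sum of the other 12 was 54.1 to 56.9 before challenge and 65.9 to 156 at day 3 in WT, and 56.5 to 91.9 and 149 to 170 under the smSocs3-KO label, with no overlap within either genotype. The mean log2 level over the 13 genes did not overlap within either genotype: it was 1.1 to 1.25 before challenge and 2.69, 2.31 and 1.34 at day 3 in WT, and 1.38 to 1.83 and 2.76 to 2.96 under the smSocs3-KO label. The low value at day 3 was that of WT day 3 replicate 4, the array with the lowest Ctsc, Ctss, Cd68, Ctsk and Lgmn of its group. The part of macrophage number in these results was not tested, and in whole aorta more cells of a type and more RNA per cell cannot be told apart. Osteoclast markers, relevant to Ctsk, Tcirg1 and Atp6v0d2, had 3 of 6 measured, with Mmp9 called lower (-1.93, SE 0.46), while Acp5, the tartrate-resistant acid phosphatase, had 0.55 (SE 0.19, limma adjusted p = 0.055) and Oscar -0.19 (SE 0.15). Neutrophil markers had 6 of 8 measured, with Ly6g (1.23, SE 0.19) and Mpo (2.04, SE 0.45) called higher and a median of 1.5, and of 5 T cell markers Cd3d (-1.5, SE 0.35) and Cd3g (-1.35, SE 0.29) were called lower, with a median of -1.25. In WT alone 2 T cell markers were called lower, with a median of -1.81. Under the smSocs3-KO label 0 were, with a median of -0.47. Of the 22755 genes tested, 249 and 168 were called lower there. At day 3 in WT, Cd3d was -3.78, -4.18 and -4.17 and Cd3g -4.08, -4.06 and -4.44. Mpo was -5.35, -5.83 and -6.67 in WT and -5.92, -7.21 and -4.29 under the smSocs3-KO label before challenge. Mmp9 was -6.22, -6.10 and -3.72 at day 3 in WT. The Ctse probe, counted as not measured, ranged from -7.11 to -4.81, so the calls of Mpo and Mmp9 rest partly on levels near background. The Galc probe, also not measured, ranged from -6.34 to -3.80, so the Cd3d and Cd3g calls also rest partly on such levels. The part of osteoclasts, neutrophils and T cells in the results was not tested.

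Lysosomal genes outside the list were read from lists drawn up for the purpose, and their counts are to be read against the 13.6% of all genes called higher and the 9.18% called lower. In the mean of both responses, 7 of 26 other hydrolases and activators were called higher and 0 lower, among them Asah1 (acid ceramidase; 0.76, SE 0.21), the phospholipase Pla2g15 (0.76, SE 0.18) and Fuca1 (α-fucosidase; 0.46, SE 0.11). Of 21 other membrane proteins 5 were higher and 2 lower, with the macrophage metal transporter Slc11a1 at 1.13 (SE 0.18) and Abca2 at -0.64 (SE 0.17). Of 12 sorting genes, Scarb2, a lysosomal membrane receptor, was higher (0.95, SE 0.20) and Sort1, a receptor that sorts prosaposin, was lower (-0.68, SE 0.19). Of 19 V-ATPase subunits 0 were higher and 1, Atp6v0e2, was lower (-0.73, SE 0.20). None of 13 MiT/TFE factors and mTORC1 partners was higher and Rragb and Fnip2 were lower, and Tfeb itself had -0.18 (95% interval -0.43 to 0.06). Of 24 autophagy genes 3 were higher and 0 lower, a share near that of all genes, and of 8 measured cathepsin inhibitors 3 were higher, Serpina3g (2.13, SE 0.55), Serpinb1a (1.91, SE 0.42) and Cstb (0.77, SE 0.18).

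The promoter motif was set beside these responses as a description. The 13 genes with CACGTG had a median mean response of 0.03, with 2 called higher (Lgmn and Ctsl) and 2 lower (Ctsf and Gaa). The 24 measured genes without it had a median of 0.38, with 11 called higher and 0 lower. Both genes that were lower thus carried the motif, though Ctsf kept its call in only 8 of 21 alternatives. Ctsc, Ctss and Cd68, which had the largest mean responses among the called genes, did not carry it.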

How the data were processed

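RNA of mouse aorta was hybridised to 12 1-colour Agilent arrays, 3 in each of 4 groups, of 62976 spots. The deposited scanner files hold the processed signal intensity of each spot after background subtraction by the authors' scanner software (Feature Extraction spot analysis 10.7.1.1 per the file headers, 9.5.1.1 in the submitters' processing notes), with probe coordinates on mm9. The value table of the authors holds quantile-normalized intensity of the same arrays and served as an alternative.

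Spots with an outlier flag were dropped, spots of a probe averaged, and log2 processed signal was taken minus the 75th percentile of each array over 55681 probes. Probes entered the fit where at least 1 group had them well above background (13 SD of the background) on all its arrays, which left 32275 probes, and the brightest kept probe stood for a gene, which left 22755 genes. No list probe was saturated. Groups were fitted as 4 means with limma 3.58.1 (R 4.3.3), with Benjamini-Hochberg adjustment over all genes, and 6 comparisons were made. The number of arrays limits the precision. The code was tested on simulated data with known changes.

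The genes, the gene lists and the tests were chosen with earlier results of these data known. All genes were named by role. Levels on every array were given for Psap, for genes past the threshold of the study, for up to 4 called genes with the smallest p in each pairwise comparison (or the 2 with the smallest p where fewer than 2 passed) and for the 2 with the smallest p for the difference of the responses, and choices outside this rule are marked. Alternatives were another background correction, quantile normalization, the value table of the authors, other filters and probe summaries, other moderation, slide or replicate number as a block, single slides and leaving out each array. Replicate numbers were not taken to pair arrays. Some genes of the lists are not reported here by name.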

Additional observations from a re-analysis of the deposited data

How the results depend on the processing

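The counts in this section are given without the share of all genes called under the same setting. They show how far the calls depend on the setting and are not results about the list genes in particular. The number of list genes called by limma in the WT response was 1 as reported. It was 2 with normexp background correction, 5 with the filter on all arrays or with slide as a block, 6 with trended and robust moderation, and 0 with no filter, the mean of all kept probes, only the groups compared, slide 1 only or the replicate block. For the smSocs3-KO response it was 3, and it was 1 with the mean of all kept probes or slide 2 only and 0 with no filter, slide as a block or the replicate block. For the genotypes at day 3 it was 1, and it was 0 with quantile normalization, the value table of the authors, no filter, slide as a block, the replicate block or Psap left out. The mean of both responses gave 16 genes, 10 with no filter and 3 with the replicate block. Leaving out 1 array at a time gave 0 to 10 in the WT response, 0 to 6 in the smSocs3-KO response, 0 to 1 between genotypes at day 3, 0 to 1 for the difference of the responses (1 without smSocs3-KO before challenge replicate 4) and 9 to 15 for the mean. Between genotypes before challenge it was 0 under every alternative run. The Psap difference before challenge turned to -0.35 and that of Npc2 to -0.0402 with slide as a block or on slide 1 only. Ctsc, Cd68 and Ctsk kept their call in the mean under all 21 alternatives, and Ctss, Lgmn, Ctsl, Cd63 and Gusb under 20. Gaa kept it under 19, Ctsz under 18, Npc2 under 14 and Ctsb under 12. Neu1 and Ctsf kept it under 8, Lamp2 under 6 and Tcirg1 under 5. The slide block rests on smSocs3-KO before challenge replicate 1, the single array of its genotype on slide 1. The cause of the other changes was not tested.

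Replicate numbers were not shown to pair arrays: the correlation of deviations over 11 pairs with the same number ran from -0.403 to 0.464, and 4 of 11 arrays correlated best with an array of their own number.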

Other observations

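Genes that shared the pattern of Psap were sought after its values were seen. The same 4 arrays were the highest for 454 other genes of 22755 (1.995%), and 41 of these had a step of at least 1 log2 unit. List genes gave 2 of the 454, Arsa and Mcoln1, neither with a step of that size. The step from the lowest of the 4 high arrays to the highest of the others was 3.71 for Psap. Of the 41 genes, 3 were on the gene lists used here and 1, Ddit4, was chosen after its values were seen, so those named do not stand for the 41. The step was 1.89 for Ddit4, a stress-induced inhibitor of mTORC1, 1.27 for Map1lc3a, an autophagosome protein, 1.11 for Laptm4a, a lysosomal membrane protein, and 1.04 for Dpt, an extracellular matrix protein, all in log2 units. Ddit4 is a neighbour of Psap on its chromosome, at -352280 bases from the Psap probe, and differed between the genotypes at day 3 by 3.56. Because the high arrays it shares with Psap include all smSocs3-KO arrays of day 3, the direction of that difference was fixed in advance. The genes measured between Ddit4 and Psap were not called at day 3. Their differences were 0.36 for Anapc16, 0.21 for Ascc1, 1.31 for Spock2 and -0.26 for Chst3. On the other side of Psap, the nearest measured gene, 4632428N05Rik at 69974 bases, also had the same 4 highest arrays. It was 0.99 to 1.53 on them and at most 0.70 on the others. Its day 3 difference of 1.21, not called, had its direction fixed in the same way. The steps describe the arrays and carry no test.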
